A study of Caenorhabditis elegans with 16 samples.

Results

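The ceh genes are the Caenorhabditis elegans genes named for carrying a homeobox, the stretch that codes for the DNA-binding homeodomain of a transcription factor. The members were the rows of the deposited gene count table whose name starts with ceh- followed by a number, and there were 56 of them among 24654 counted genes. Homeodomain proteins bind regulatory DNA and set cell identity, and in this animal most classes of neuron are marked by a combination of them. The name ceh covers several homeodomain classes: the NK and related class, Hox, paired-like, POU, sine oculis, PBC and CUT. CUT proteins carry an additional DNA-binding domain beside the homeodomain and include relatives of the vertebrate CUX and ONECUT proteins.

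RNA came from whole first-stage (L1) larvae that had hatched without food and arrested for at least 12 h at 20 °C. There were 8 groups of 2 libraries each, from cdk12-as and from the N2 wild type. In each strain the groups were larvae fed OP50 bacteria for 4 h with the compound 3MB-PP1 at 1 µM, larvae fed for 4 h with the solvent DMSO, larvae starved for 4 h with DMSO, and the arrested culture at the start (0 h). The cdk12-as strain carries an analog-sensitive form of CDK-12, a kinase that phosphorylates RNA polymerase II, and 3MB-PP1 is the compound given to block that form. N2 larvae given 3MB-PP1 show what the compound does where the kinase is unaltered. The labels number the libraries of a group without naming separate cultures, so the p-values measure the spread between these libraries, which may be technical. The RNA is a bulk sample of the whole larva, in which fewer cells of a type and less RNA per cell cannot be told apart.

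Gene counts summed to 18588196 to 56644943 per library, of which 20.3 to 50.7% lay in the ribosomal RNA gene rrn-2.1. This share split by replicate number without overlap. Every library numbered 1 held at least 34.79%, and every library numbered 2 held at most 33.39%. The ceh genes together took 11169 to 29629 counts per library. The 2 libraries of every group differed by more than counting noise. The pair of fed wild-type libraries with inhibitor stood farthest apart, with a chi-square per degree of freedom of 9.76 over the ceh genes, against 1.7 to 4.71 in the other groups. All values below are CPM (read counts scaled to library size, with TMM factors) unless a level per kilobase is named. In total 12 comparisons were made, and a gene was called where edgeR's quasi-likelihood test gave a Benjamini-Hochberg adjusted p under 0.05 over the 15845 genes tested.

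Of the 56 ceh genes, 48 passed the filter on low counts and were tested. The other 8 were ceh-7, ceh-12, ceh-51, ceh-75, ceh-82, ceh-84, ceh-85 and ceh-87, whose mean levels reached at most 0.12 CPM. A mean of at least 1 CPM was reached by 41 members, and 7 of the tested members lay below it. The members are spread over all 6 chromosomes, with 8 on I, 14 on II, 9 on III, 4 on IV, 12 on V and 9 on X. Their coordinates overlapped another gene in 12 cases, where counts could be shared between the genes.

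Summed over the family, the level lay between 545.0 and 615.4 CPM per library with TMM scaling. Its course with food depended on the scaling: as CPM of all gene counts less rrn-2.1, the sum was 770.5 to 881.7 in the 8 fed libraries, with or without inhibitor, and 923.8 to 1037 in the 8 unfed ones, ranges that did not overlap. Per kilobase of coding length, ceh-20 had the highest mean level over the 16 libraries, at 72.5 CPM per kb. CEH-20 is the PBC-class relative of fly Extradenticle and a DNA-binding partner of Hox proteins. It was followed by ceh-18 at 31.1 CPM per kb, a POU gene known from the gonadal sheath and oocyte arrest, and by the ONECUT gene ceh-38 at 27.6 CPM per kb. The Distal-less relative ceh-43 had 22.2 CPM per kb, the labial-like Hox gene ceh-13 had 19.5 CPM per kb, and ceh-44, the CUX relative, had 19.4 CPM per kb. The sine oculis-class gene ceh-32 stood at 17.9 CPM per kb, and the highest paired-like gene was the goosecoid relative ceh-45 at 3.91 CPM per kb. By CPM the 5 highest members (ceh-44, ceh-20, ceh-100, ceh-38 and ceh-18) took 53.5 to 59.0% of the family's sum in each library.

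**Figure D1:**
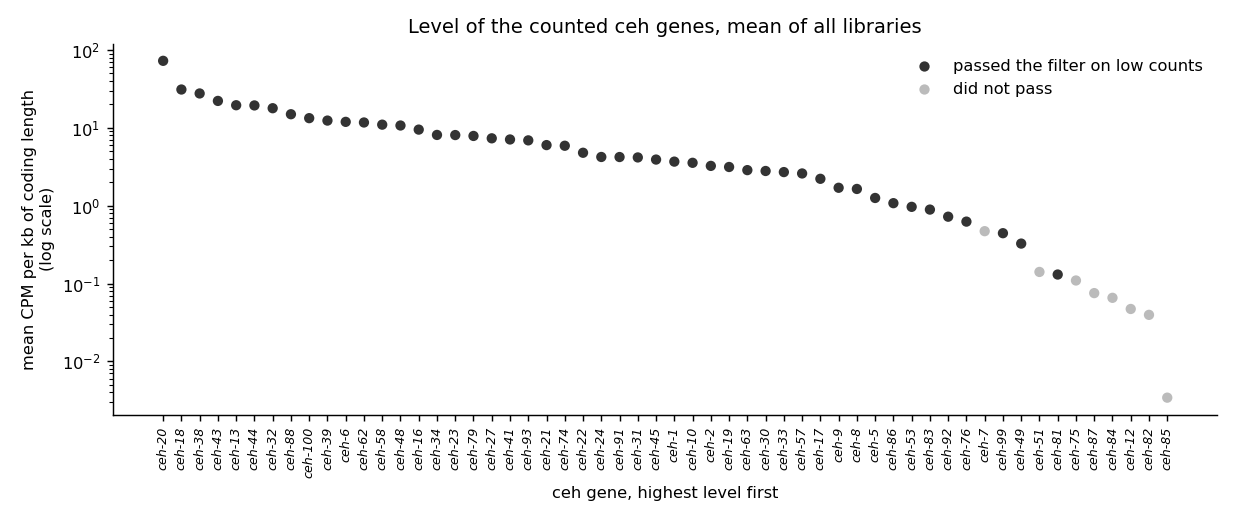
Mean level of the 56 counted ceh genes over the 16 libraries, in CPM per kb of coding length on a log axis, highest first. Dark points are the 48 genes that passed the filter on low counts and pale points the 8 that did not; ceh-20 leads at 72.5 CPM per kb.

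The comparison of fed larvae with and without inhibitor asks which transcripts need the kinase activity of CDK-12. In cdk12-as larvae 2 ceh genes fell with it and 1 rose, that is 6.25% of the 48 tested members, against 12.1% of all tested genes. By direction, 4.17% of the members fell and 2.08% rose, against 8.37% lower and 3.77% higher among all tested genes. The genes that fell were ceh-41 and ceh-21, ONECUT genes that lie next to each other on the minus strand of chromosome X, and the gene that rose was ceh-20. The members' median log2 fold change was 0.06, and that of all tested genes was 0.06. In wild-type larvae the inhibitor changed 0 of the 48 members and 0% of all tested genes. None of the 48 had an unadjusted p under 0.05 there, and DESeq2 also called 0.

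The level of ceh-41 was 1.39 and 1.45 CPM in fed cdk12-as larvae with inhibitor, against 6.57 and 5.10 CPM in fed cdk12-as larvae without it. Both treated libraries lay far below both untreated ones, on 32 and 77 reads against 144 and 252. The log2 fold change was -2.02 ± 0.17 (SE, adjusted p = 4.1e-06). Fed wild-type larvae had 11.2 and 9.56 CPM with inhibitor and 9.58 and 9.80 CPM without it, groups that overlapped (log2 fold change 0.10, adjusted p = 1). The difference between the strains in the response to the inhibitor was itself called, at -2.12 ± 0.22 on the log2 scale (SE, adjusted p = 7.22e-05). It was the 1 member called in that test, 2.08% of 48 against 6.94% of all tested genes, or 6.02% counting only changes in its direction. Over the 12 alternative settings tried, the ceh-41 fold change in cdk12-as larvae ranged from -2.21 to -1.84 and its adjusted p stayed at or below 0.0101. The level in fed larvae with inhibitor was also below the 4.46 and 4.45 CPM of starved cdk12-as larvae (log2 fold change -1.64, adjusted p = 9.25e-06).

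The neighbour ceh-21 had 5.15 and 5.61 CPM in fed cdk12-as larvae with inhibitor and 8.62 and 9.43 CPM in those without. The groups did not overlap, and the log2 fold change was -0.74 ± 0.15 (SE, adjusted p = 0.00481; 0.0848 under total count scaling). Wild-type larvae had 10.2 and 10.1 CPM with inhibitor and 10.6 and 10.2 CPM without it, values within 1 CPM of each other. The strain difference in this response, -0.70 ± 0.21, missed the threshold (adjusted p = 0.0721), and it was called under 4 of 16 alternatives. The third gene of the row, ceh-39, which acts as an X-linked signal in sex determination, did not pass the test. It had 17.7 and 19.6 CPM with inhibitor and 14 and 16.1 CPM without it in fed cdk12-as larvae, a log2 fold change of 0.31 ± 0.14 (SE, adjusted p = 0.214; called under 1 of 12 alternatives, at 0.0233). Against starved cdk12-as larvae, fed larvae with inhibitor had a log2 fold change of -0.59 for ceh-21 (adjusted p = 0.00898, lost under 3 of 12 alternatives) and of 0.31 for ceh-39 (adjusted p = 0.12). Neither gene was called in the comparisons of food without inhibitor, of starvation or of the strains. These statements on ceh-39 depended on the settings: its difference between starved cdk12-as and starved wild-type larvae was called under 3 of 12 alternatives (adjusted p of 0.0041 at the lowest), and its change in fed larvae with inhibitor over starved larvae under 2 of 12 (0.0111 at the lowest). Under 1 of 12 each, it was also called with food in wild type (0.00741), on starvation in wild type (0.0413) and between the strains at the start (0.0296).

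These genes are transcribed in the order ceh-39, T26C11.9, ceh-21, ceh-41 and T26C11.4. On genome build ce10, ceh-39 lies at chrX:1854399-1855870, ceh-21 at chrX:1850045-1852730 and ceh-41 at chrX:1847151-1848669, all on the minus strand. Between ceh-39 and ceh-21 lie 1668 bases, which hold T26C11.9, and that gene ends 204 bases before ceh-21. Between the annotated ends of ceh-21 and ceh-41 lie 1375 bases, and T26C11.4 begins 1649 bases after ceh-41. Neither flanking gene passed the test with the inhibitor in cdk12-as larvae. The log2 fold change of T26C11.9 was 0.11 (adjusted p = 0.879) and that of T26C11.4 was 0.06 (adjusted p = 0.779). In fed cdk12-as larvae T26C11.9 had only 29 and 73 reads with inhibitor and 26 and 62 without it, so a small change could be missed. T26C11.9 and T26C11.4 were chosen for their position after these values had been seen.

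A ratio of neighbours within a library does not depend on how libraries are scaled to each other. Per kilobase, ceh-41 stood at 0.483 and 0.462 times ceh-21 in fed cdk12-as larvae with inhibitor, against 1.36 and 0.962 times in those without. Fed wild-type larvae had ratios of 1.95 and 1.69 with inhibitor and 1.61 and 1.71 without it, and in the 8 unfed libraries of both strains the ratio lay between 0.748 and 1.16. The treated cdk12-as libraries held the lowest values of this ratio among the 16. In cdk12-as larvae the mean log2 ratio was -1.08 in the treated pair and 0.19 in the untreated pair, a difference of -1.27 with no test. One step upstream, ceh-21 per kilobase stood at 0.236 and 0.231 times ceh-39 with inhibitor and at 0.497 and 0.474 times without it in fed cdk12-as larvae. Along the strand the log2 fold change with inhibitor was 0.31 for ceh-39, 0.11 for T26C11.9, -0.74 for ceh-21, -2.02 for ceh-41 and 0.06 for T26C11.4. In the main fit ceh-21 and ceh-41 thus lay between genes that were not called, of which T26C11.9 rests on few reads.

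**Figure D2:**
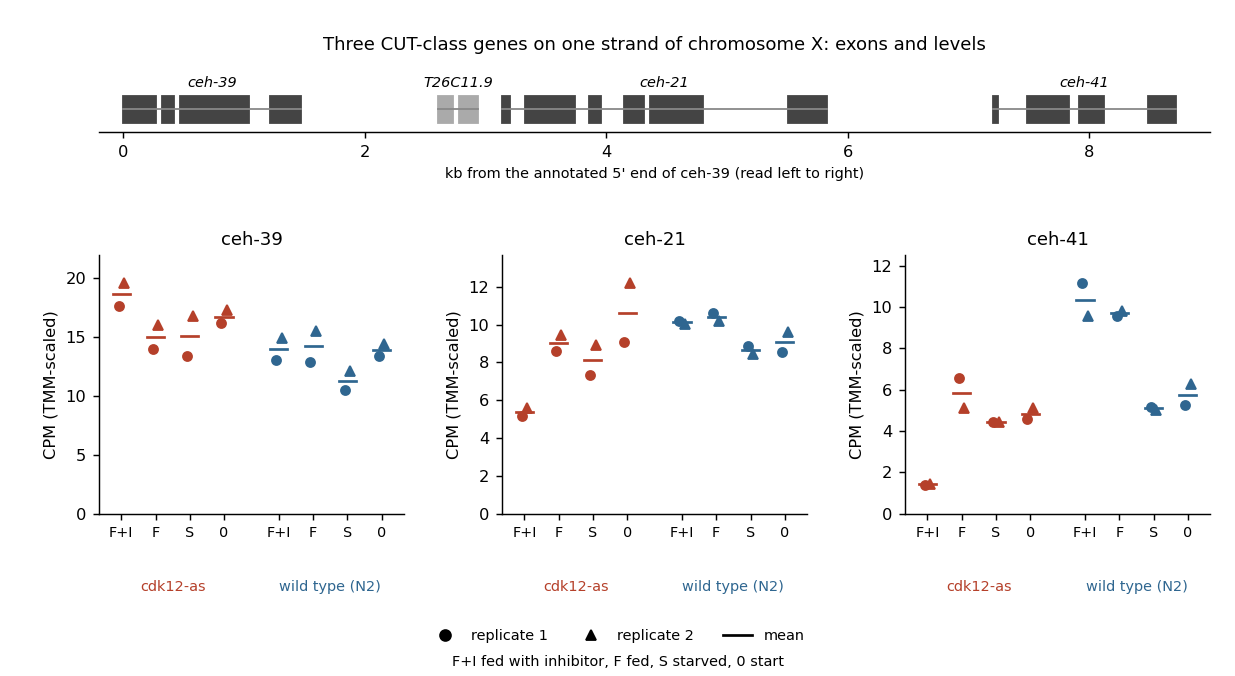
Top, exons of ceh-39, T26C11.9, ceh-21 and ceh-41 in the direction of transcription, by distance in kb from the annotated 5' end of ceh-39. Bottom, CPM of the 3 ceh genes in each library (points) with group means (lines), by strain and condition; ceh-41 has 1.39 and 1.45 CPM in fed cdk12-as larvae with inhibitor and at least 4.45 CPM in the 14 other libraries.

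Tested ceh genes were divided by the distance to the nearest upstream gene on the same strand. Members for which that upstream gene was not itself tested were left out. For 14 members it was tested and ended within 2000 bases, a limit chosen after the values had been seen. Of these 14, 2 (ceh-41 and ceh-21) were called lower with inhibitor in cdk12-as larvae, where 8.37% of all tested genes were lower. These 2 genes prompted the division, so their count restates them, and the median of the 14 was -0.05, with a range of -2.02 to 0.29. The next lowest was ceh-83 at -0.53, which was not called (adjusted p = 0.313) and is named here after its value was seen. The 17 members whose nearest upstream gene was tested and ended farther away had a median of 0.03 and a range of -0.41 to 0.37. Of these, 0 were called lower and 1 higher, ceh-20, whose neighbour ended 2015 bases upstream, just past the limit.

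The Hox partner ceh-20 was the member that rose with inhibitor in cdk12-as larvae. Its level was 97.5 and 88.6 CPM in fed cdk12-as larvae with inhibitor and 75.0 and 69.8 CPM in those without it. Both treated libraries were higher, by 0.36 ± 0.07 on the log2 scale (SE, adjusted p = 0.00498). The call was lost under scaling by total count (adjusted p = 0.968), under total count less rrn-2.1 (0.0611), with the libraries of the comparison alone and without replicate 1 of the treated group (0.095) or replicate 2 of the untreated group (0.0733). Fed wild-type larvae had 83.1 and 83.2 CPM with inhibitor and 76.3 and 80.2 CPM without it (log2 fold change 0.09, adjusted p = 1). The strain difference in the response, 0.28 ± 0.10, did not pass (adjusted p = 0.186).

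Feeding for 4 h, set against starving for 4 h, asks how the genes respond to exit from arrest. In wild-type larvae 21 of the 48 tested members (43.8%) were called, against 46% of all tested genes. The share was near the background, but the directions were uneven: 16 fell and 5 rose, or 33.3% and 10.4% of the members, against 21.5% lower and 24.4% higher among all tested genes. The members' median log2 fold change was -0.45, against -0.01 over all tested genes. Scaling by total count gave 0 higher and 17 lower members, and total count less rrn-2.1 gave 2 higher and 20 lower, while the median of all genes moved to -0.38 and -0.27 in these 2 settings. Without the second fed wild-type library the count of called members was 13.

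The NK-class gene ceh-63 fell most among members of at least 1 CPM. It had 0.677 and 0.919 CPM in fed wild-type larvae and 2.56 and 3.17 CPM in starved wild-type larvae, groups well apart (log2 fold change -1.85 ± 0.27, adjusted p = 0.000108). The level of ceh-79 was 4.63 and 4.64 CPM in fed wild-type larvae and 13.8 and 14.6 CPM in starved ones, a change of -1.61 ± 0.16 (SE, adjusted p = 4.01e-06). The starved libraries were again all above the fed ones. Below 1 CPM, ceh-76 gave the largest log2 fold change, -2.51 (adjusted p = 0.000228), with 0.107 and 0.102 CPM in fed and 0.654 and 0.565 CPM in starved wild-type larvae. The fed values rest on 3 and 2 reads and the starved ones on 25 and 13. The gene is named here after its values were seen.

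Of the ceh genes known from the pharynx, some fell and some did not pass the test. The NK-2 relative ceh-22, which drives pharyngeal muscle genes, had 3.03 and 3.57 CPM in fed wild-type larvae and 8.94 and 6.65 CPM in starved ones (log2 fold change -1.25 ± 0.23, adjusted p = 0.000644). The sine oculis-class gene ceh-34, which specifies pharyngeal neurons, had 3.74 and 4.54 CPM in fed and 10.1 and 7.78 CPM in starved larvae (-1.12 ± 0.19, adjusted p = 0.000416). In both genes every fed library was below every starved one. Also known from pharyngeal muscle or neurons are ceh-24 (-0.52, adjusted p = 0.0905), ceh-2 (-0.20, adjusted p = 0.554) and ceh-19 (-0.03, adjusted p = 0.969), named here after their values were seen, and none of these 3 was called. The summed level of pharynx markers was lower in fed wild-type larvae too, a sum made up mostly of 1 gene. Of 8 listed, 7 were counted and none was at 0 in any library. With food in wild-type larvae 2 rose and 2 fell (28.6% each), against 24.4% higher and 21.5% lower among all tested genes. The median log2 fold change of the 7 was -0.67. Their summed level was 543.6 and 680.1 CPM in fed wild-type larvae and 1128 and 893.9 CPM in starved ones, and their part in the result was not tested. The gene myo-1, a myosin heavy chain of pharyngeal muscle singled out after its values were seen, had 482.3 and 611.5 CPM in fed and 1023 and 809.5 CPM in starved wild-type larvae and was not called (adjusted p = 0.0809). The other 6 markers summed to 61.3 and 68.6 CPM in fed and 105.4 and 84.4 CPM in starved wild-type larvae, and among them phat-2 and phat-4 were the genes that rose. In cdk12-as larvae the sum with myo-1 was 874.9 and 962.9 CPM in fed and 975.3 and 1112 CPM in starved larvae.

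By class, 4 of 14 tested NK-class genes fell with food in wild-type larvae and 1 rose, that is 28.6% lower and 7.14% higher, against 21.5% lower and 24.4% higher among all tested genes. The share of falls is near that of all genes, and the other classes hold at most 7 tested members. No class was assigned to 20 of the 56 members, so the classes do not cover the family. The 3 sine oculis-class genes gave 2 falls (ceh-33, at -0.88 and lost under 3 of 12 alternatives, and ceh-34), while ceh-32 was at 0.08 (adjusted p = 0.678). The goosecoid relative ceh-45 was the 1 paired-like gene of 5 called, at -1.19 ± 0.26 (SE, adjusted p = 0.00206), with 1.78 and 1.89 CPM in fed and 4.50 and 3.82 CPM in starved larvae. The labial-like Hox gene ceh-13 was lower by a narrow margin (-0.62, adjusted p = 0.0494), and leaving out any of the 4 libraries lost that call. Of the 7 CUT genes, ceh-38 (-0.58, adjusted p = 8.84e-05) and ceh-48 (-0.52, adjusted p = 0.0106, named after its value was seen) fell and ceh-41 rose. The call of ceh-48 was lost without the second fed wild-type library (adjusted p = 0.105). The remaining members named by size were ceh-83 (-1.13), ceh-74 (-0.90) and ceh-91 (-0.70). The call of ceh-83 was lost without the second fed wild-type library (adjusted p = 0.0565), and that of ceh-74 without it (0.0641) or without the first starved one (0.0523).

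The genes that rose with food in wild-type larvae included ceh-43 and ceh-41. The Distal-less relative ceh-43, which acts in head and neuron development, had 23.8 and 24.5 CPM in fed wild-type larvae and 14.01 and 11.69 CPM in starved ones (log2 fold change 0.91 ± 0.14, adjusted p = 0.000137). The ONECUT gene ceh-41 had 9.58 and 9.80 CPM in fed and 5.15 and 5.04 CPM in starved wild-type larvae (0.93 ± 0.15, adjusted p = 0.000258). In both the fed libraries lay above the starved ones without overlap. Scaling by total count left both fold changes positive and ended both calls (adjusted p = 0.0593 for ceh-43 and 0.111 for ceh-41). The same food response of ceh-41 in cdk12-as larvae was 0.38 (adjusted p = 0.0878), and it was called under 2 of 12 alternatives (adjusted p of 0.0357 at the lowest). The strain difference in it was -0.55 and was not called (adjusted p = 0.16), and fed cdk12-as larvae had less of it than fed wild-type larvae by 0.74 on the log2 scale (a change of -0.74, adjusted p = 0.00314, or 0.171 under total count scaling).

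In cdk12-as larvae without inhibitor, food changed 7 of the 48 members (14.6%), 6 lower and 1 higher, against 27.7% of all tested genes. By direction, 12.5% of the members were lower and 2.08% higher, against 12.1% lower and 15.6% higher among all tested genes. The falls were ceh-76, ceh-45 (-0.86, adjusted p = 0.0204), ceh-79 (-0.73, adjusted p = 0.00342), ceh-57, ceh-91 (-0.50, adjusted p = 0.0119) and ceh-38 (-0.32, adjusted p = 0.0115), and ceh-20 rose by 0.28 (adjusted p = 0.0135). The call of ceh-76 ended under 4 of 11 alternatives. Of 12 alternatives, 5 ended the call of ceh-45, 4 that of ceh-91, 5 that of ceh-38 and 6 that of ceh-20, while that of ceh-79 ended under total count scaling (adjusted p = 0.131). The median over the members was -0.33, against -0.08 over all tested genes. Of the 16 members that fell in wild type, 5 (31.2%) also fell in cdk12-as, which is 5 of the 6 falls there (83.3%). Over all tested genes 47.5% of the wild-type falls also fell in cdk12-as, and these were 84.5% of the falls there. The 1 rise in cdk12-as was not among the 5 of wild type, a count too small to set against the 94.1% of cdk12-as rises shared over all tested genes. All 21 members called in wild-type larvae had a smaller fold change in size in cdk12-as larvae, and 20 kept its sign. The same shares over all genes called in wild type were not computed, so these counts are not read as a trait of the family. The members were selected on the wild-type value here, so a smaller value in the other strain is a description. Without the first starved cdk12-as library the count was 2, and total count less rrn-2.1 gave 0 higher and 12 lower.

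**Figure D3:**
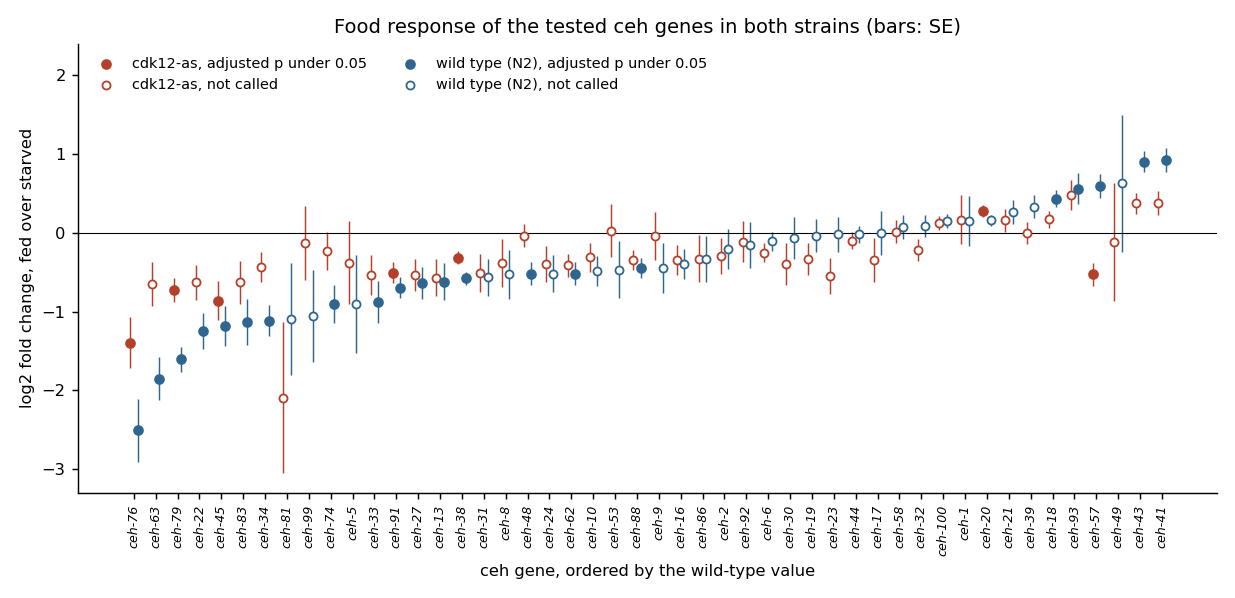
Log2 fold change of fed over starved larvae (y axis) for the 48 tested ceh genes, ordered by the wild-type value, in cdk12-as and wild-type larvae. Filled points have an adjusted p under 0.05, bars are standard errors; ceh-57 is at -0.53 in cdk12-as and 0.60 in wild type.

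The test of the strain difference in the food response called 2 members, 4.17% of 48 against 6.72% of all tested genes. One was more negative and the other more positive in cdk12-as, against 2.93% and 3.79% of all tested genes. The first was ceh-57, which moved in opposite directions. It had 2.55 and 2.31 CPM in fed and 3.67 and 3.29 CPM in starved cdk12-as larvae, and 3.35 and 3.32 CPM in fed and 2.30 and 2.09 CPM in starved wild-type larvae. In cdk12-as the fed libraries were the lower ones and in wild type the higher ones, with no overlap in either strain. The log2 fold changes were -0.53 ± 0.15 in cdk12-as (SE, adjusted p = 0.0181) and 0.60 ± 0.15 in wild type (SE, adjusted p = 0.00579), a difference of -1.12 ± 0.21 (adjusted p = 0.00857). That difference was called in 15 of 16 alternatives and missed under total count scaling (-0.82, adjusted p = 0.452). The fall within cdk12-as was lost without the first starved library (adjusted p = 0.121) or the second fed library (0.14) and under 4 of the other settings, and the rise within wild type under total count (0.538) and total count less rrn-2.1 (0.115).

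With inhibitor, ceh-57 stood lower still, at 1.78 and 1.85 CPM in fed cdk12-as larvae with inhibitor. These are the lowest of the 16 libraries, and the level was below that of starved cdk12-as larvae by 0.94 on the log2 scale (a change of -0.94, adjusted p = 0.000345). Against fed larvae without inhibitor the change was -0.41 and was not called (adjusted p = 0.114). Fed wild-type larvae had 3.23 and 3.18 CPM with inhibitor and 3.35 and 3.32 CPM without it. The gene lies on the minus strand at chrII:10363646-10365567 on ce10, and ceh-58 ends 2284 bases upstream of it at chrII:10367852-10369522. The 2 genes were set side by side after their values had been seen. The levels of ceh-58 lay between 9.03 and 12.2 CPM in all 16 libraries, its food response was 0.02 in cdk12-as and 0.07 in wild type, and it was called in none of the 12 comparisons.

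**Figure D4:**
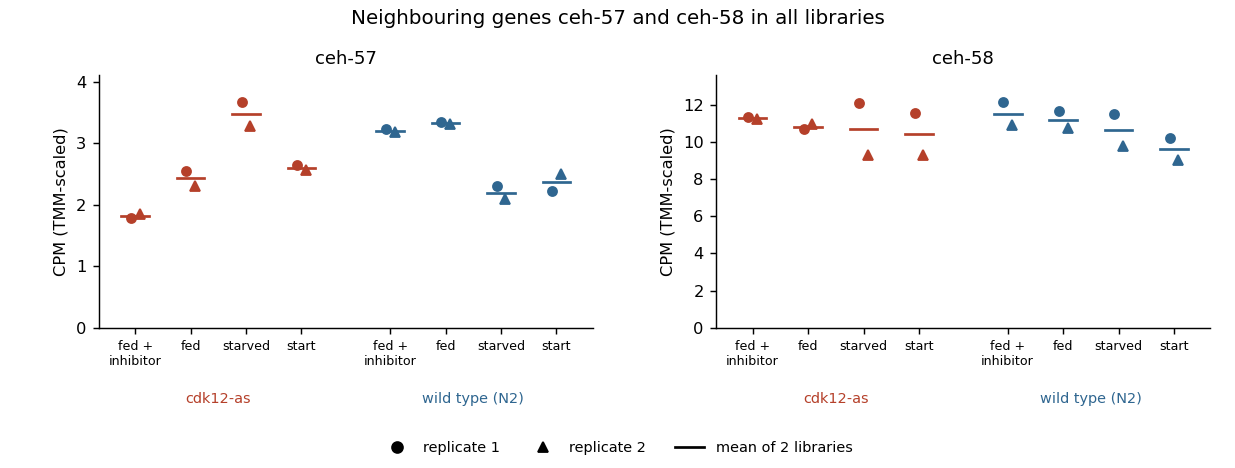
CPM of ceh-57 and ceh-58 in each library (points) with group means (lines), by strain and condition. Fed cdk12-as larvae have less ceh-57 than starved ones (2.55 and 2.31 against 3.67 and 3.29 CPM), fed wild-type larvae more (3.35 and 3.32 against 2.30 and 2.09 CPM), and ceh-58 stays between 9.03 and 12.2 CPM.

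The second member with a strain difference in the food response was ceh-79. It fell in both strains, to 7.66 and 7.25 CPM in fed cdk12-as larvae against 11.36 and 13.31 CPM in starved ones, and to 4.63 and 4.64 CPM in fed wild-type larvae against 13.8 and 14.6 CPM in starved ones. The difference of the responses was 0.88 ± 0.22 (SE, adjusted p = 0.0333). Leaving out any 1 of the 8 libraries raised the adjusted p to between 0.0505 and 0.111, and total count scaling to 0.274. Fed cdk12-as larvae had more ceh-79 than fed wild-type larvae (log2 fold change 0.68, adjusted p = 0.00731; 0.129 under total count scaling).

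Fed cdk12-as larvae with inhibitor, set against starved cdk12-as larvae, differed in 11 of 48 members (22.9%), 10 lower and 1 higher, against 34.1% of all tested genes. By direction, 20.8% of the members were lower and 2.08% higher, against 17.1% lower and 17% higher among all tested genes. This comparison shares its starved libraries with the food comparison in that strain. The largest changes among members of at least 1 CPM were those of ceh-41 (-1.64), ceh-83 (-1.16, adjusted p = 0.0062), ceh-57 (-0.94), ceh-45 (-0.75, adjusted p = 0.0331) and ceh-22 (-0.71, adjusted p = 0.0276). The calls of ceh-45 and ceh-22 were each lost under 5 of 12 alternatives, and that of ceh-83 without the second library with inhibitor (adjusted p = 0.0751). The rise was that of ceh-20, at 97.5 and 88.6 CPM in fed larvae with inhibitor against 59.47 and 60.01 CPM in starved ones (log2 fold change 0.64 ± 0.07, adjusted p = 2.6e-05). The CUX relative ceh-44 was lower by a small step, with 75.6 and 73.0 CPM in fed larvae with inhibitor and 101.4 and 88.0 CPM in starved ones (-0.35 ± 0.11, adjusted p = 0.0224, lost under 6 of 12 alternatives). Without the first starved library, or without the first library with inhibitor, 6 members were called.

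A further 4 h of starvation, set against the arrested culture at the start, changed 1 member in cdk12-as (2.08% of 48 against 5.82% of all tested genes) and 2 in wild type (4.17% against 6.12%). All of these rose; among all tested genes 2.74% rose and 3.08% fell in cdk12-as, and 3.04% rose and 3.07% fell in wild type. The member called in both strains was ceh-23, a homeobox gene of the nervous system known from the AIY interneuron. It had 8.83 and 11.1 CPM in starved cdk12-as larvae and 1.64 and 1.45 CPM at the start. Wild-type larvae had 10.95 and 8.82 CPM after 4 h of starvation and 2.73 and 2.90 CPM at the start. Every 4 h library was above every start library, those of fed larvae included, which lay between 6.11 and 13.4 CPM in both strains with and without inhibitor. The log2 fold change of starved over start larvae was 2.70 ± 0.25 in cdk12-as (SE, adjusted p = 0.000172) and 1.82 ± 0.24 in wild type (SE, adjusted p = 0.00106). Both calls held in all 12 alternatives, and the difference between them was not tested. The other wild-type call was ceh-9 (log2 fold change 1.31, adjusted p = 0.0326), a gene below 1 CPM that is named here after its values were seen. It was lost when any of the 4 libraries was left out.

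**Figure D5:**
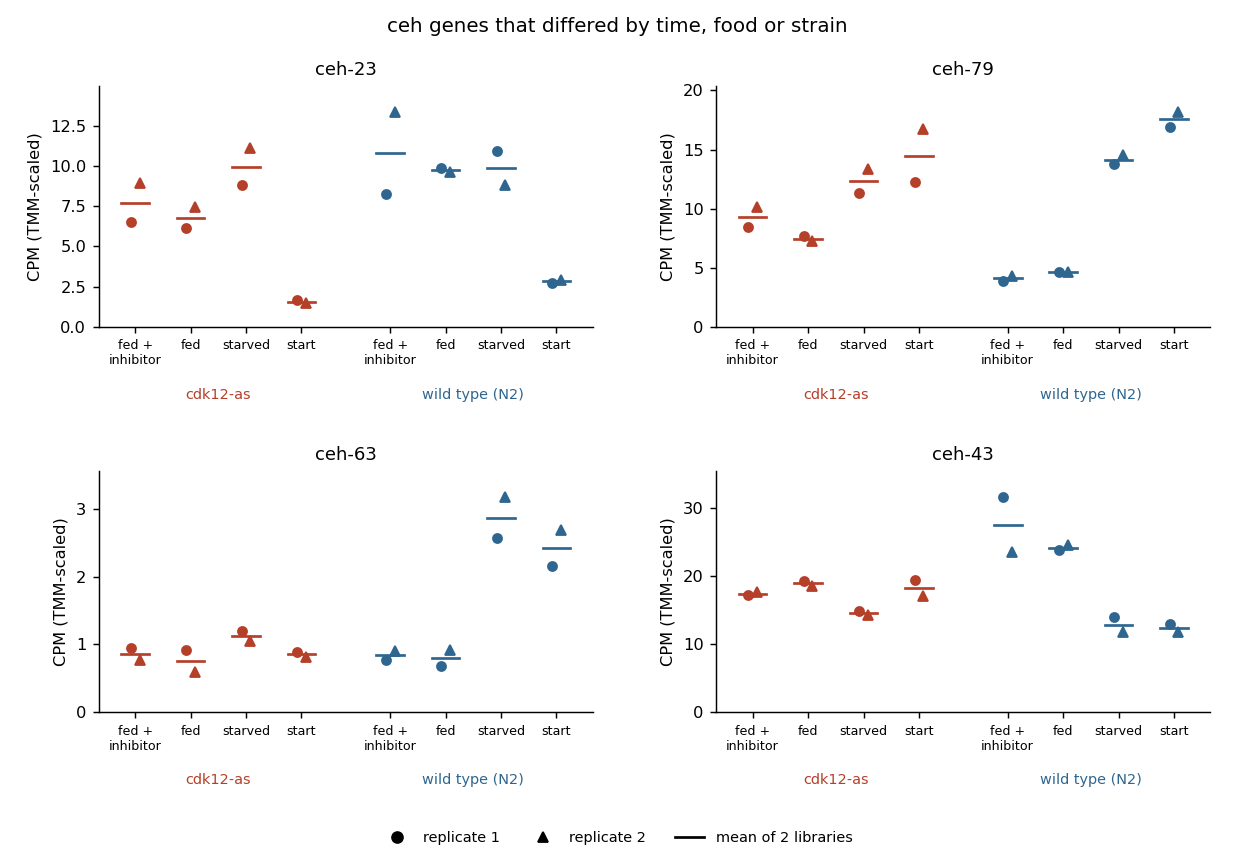
CPM of ceh-23, ceh-79, ceh-63 and ceh-43 in each library (points) with group means (lines), by strain and condition. The start libraries hold 1.45 to 2.90 CPM of ceh-23 and all other libraries at least 6.11 CPM; wild-type starved and start libraries hold at least 2.15 CPM of ceh-63 and all other libraries at most 1.20 CPM.

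The strains were also compared under the same condition. At the start 8 of 48 members differed (16.7%), 6 lower and 2 higher in cdk12-as, against 24.4% of all tested genes. By direction, 12.5% of the members were lower and 4.17% higher, against 11.6% lower and 12.8% higher among all tested genes. After 4 h of starvation 4 differed (8.33%), 3 lower (6.25%) and 1 higher (2.08%), against 18.1% of all tested genes (8.28% lower and 9.8% higher). In fed larvae without inhibitor 3 differed (6.25%), 2 lower (4.17%) and 1 higher (2.08%), against 28.9% (16.2% lower and 12.7% higher). Leaving out 1 library left 1 to 4 calls at the start, 1 to 2 in starved and 2 to 3 in fed larvae. Total count less rrn-2.1 turned the split to 3 higher and 1 lower in starved and in fed larvae.

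The NK-class gene ceh-63 held up under every alternative in unfed larvae. Its level was 0.893 and 0.814 CPM in cdk12-as at the start and 2.15 and 2.69 CPM in wild type (log2 fold change -1.51 ± 0.25, adjusted p = 0.0012). After 4 h of starvation it was 1.20 and 1.04 CPM in cdk12-as and 2.56 and 3.17 CPM in wild type (-1.34 ± 0.25, adjusted p = 0.0034). In fed larvae the strains overlapped, at 0.912 and 0.587 CPM in cdk12-as and 0.677 and 0.919 CPM in wild type. Other differences at the start were the BarH relative ceh-31 (-0.99, adjusted p = 0.00915), ceh-23 (-0.87, adjusted p = 0.0266), the Emx relative ceh-2 (0.76, adjusted p = 0.0319) and ceh-43 (0.56, adjusted p = 0.0106). Each of these 4 was lost on leaving out at least 2 of the 4 libraries in turn. In starved larvae ceh-57 was higher in cdk12-as by 0.66 (adjusted p = 0.0092), and in fed larvae lower (-0.46, adjusted p = 0.0357), calls that 4 and 10 of 12 alternatives ended. The small differences of ceh-20 (-0.23 at the start and -0.23 in starved larvae) and ceh-38 (-0.24 and -0.26) were lost under 8 or 10 of 12 alternatives. Pharynx markers differed between the strains as well: 3 of 7 (42.9%) were higher in cdk12-as at the start, 3 (42.9%) in starved and 4 (57.1%) in fed larvae, with 0 lower. Among all tested genes 12.8%, 9.8% and 12.7% were higher and 11.6%, 8.28% and 16.2% lower in these 3 conditions. The gaps between the strains were uneven over the markers. At the start the mean CPM in cdk12-as and wild type was 5.52 and 1.55 for phat-1, 15.7 and 4.38 for phat-2 and 8.29 and 2.92 for phat-3. It was 8.54 and 5.38 for phat-4, 60.2 and 44.3 for tnc-2, 899 and 801 for myo-1 and 31.6 and 30 for pha-4. The part of these markers in the differences of ceh genes was not tested.

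Homeobox genes with other names gave a setting for these values. Of 39 listed, 33 were counted and tested. With food, 1 rose and 12 fell in cdk12-as larvae (median -0.32), that is 36.4% lower and 3.03% higher, against 12.1% lower and 15.6% higher among all tested genes. In wild-type larvae 2 rose and 12 fell (median -0.27), that is 36.4% lower and 6.06% higher, against 21.5% lower and 24.4% higher. In wild type the Hox gene lin-39, which patterns the mid-body, fell by 1.17 on the log2 scale, a change of -1.17 (adjusted p = 0.00168), and the cell fate genes lim-4 (-1.02), unc-39 (-0.90) and unc-30 (-0.84) fell with it, while the posterior Hox gene egl-5 rose by 0.60. In cdk12-as larvae lin-39 was at -0.76 and unc-39 at -1.03, both called, and hmbx-1 rose by 1.05. No gene of this list differed between the strains in the food response by the adjusted p of edgeR, with 1 of 33 at an unadjusted p under 0.05. With inhibitor in cdk12-as larvae 1 rose (duxl-1, 0.59, adjusted p = 0.013) and 0 fell, against 3.77% higher and 8.37% lower among all tested genes, and in wild-type larvae 0 changed, with 0 at an unadjusted p under 0.05. Further starvation raised 7 in cdk12-as, among them the posterior Hox genes nob-1 (0.91), egl-5 (0.84) and php-3 (0.81) and the Hox gene mab-5 (0.61), and 1 in wild type (nob-1, 0.86). These rises are 21.2% of the 33 in cdk12-as, against 2.74% of all tested genes, and 3.03% in wild type, against 3.04%. Without a call, wild-type means also rose from start to starved larvae: php-3 from 28.4 to 47.0 CPM, egl-5 from 13.5 to 17.8 and mab-5 from 19.5 to 27.7. The strain difference in this change was not tested. The median log2 fold change of the list on starvation was 0.28 in cdk12-as and 0.19 in wild type. Between strains, 1 was higher and 4 lower in cdk12-as at the start, 1 higher and 2 lower in starved larvae, and 0 higher and 4 lower in fed larvae. Among all tested genes 12.8% were higher and 11.6% lower at the start, 9.8% and 8.28% in starved and 12.7% and 16.2% in fed larvae. The GABA neuron gene unc-30 was lower in cdk12-as in all 3 (-1.08 at the start, -0.93 in starved and -0.63 in fed larvae).

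Markers of neurons, where many ceh genes act, were counted as well. Of 15 pan-neuronal genes listed, 13 were counted and none was at 0. With food 0 rose and 3 fell in cdk12-as larvae and 0 rose and 4 fell in wild-type larvae, with medians of -0.12 and 0.02. Lower were thus 23.1% of the 13 in cdk12-as and 30.8% in wild type, against 12.1% and 21.5% of all tested genes. The largest fall was that of ric-19, a gene of dense core vesicle maturation singled out after its values were seen. It had 11.7 and 12.7 CPM in fed and 21.2 and 19.5 CPM in starved cdk12-as larvae (log2 fold change -0.74, adjusted p = 0.00017), and 9.83 and 10.1 CPM in fed and 25.8 and 28.6 CPM in starved wild-type larvae (-1.45, adjusted p = 2.76e-07). Their summed level was 1744 and 1651 CPM in fed and 1949 and 2116 CPM in starved cdk12-as larvae, and 1893 and 1859 CPM in fed and 2210 and 2200 CPM in starved wild-type larvae. The fed sums were the lower ones in both strains, but much of that gap came from egl-3, a prohormone convertase gene singled out after its values were seen. It had 667.9 and 661.3 CPM in fed and 848.1 and 1040 CPM in starved cdk12-as larvae, and 715.3 and 791.9 CPM in fed and 1076 and 1109 CPM in starved wild-type larvae. The other 12 genes summed to 1076 and 989.3 CPM in fed and 1100 and 1077 CPM in starved cdk12-as larvae, where the fed sums were lower by a narrow margin. In wild-type larvae these 12 summed to 1178 and 1067 CPM in fed and 1133 and 1091 CPM in starved larvae, and the groups overlapped. The part of these markers in the falls of ceh genes was not tested. With inhibitor in cdk12-as larvae 0 of 13 changed, against 12.1% of all tested genes. The sum of the 13 was 1715 and 1686 CPM, next to 1744 and 1651 CPM without it. Further starvation raised 1 in each strain (7.69% of the 13), against 2.74% of all tested genes in cdk12-as and 3.04% in wild type. The 2 epidermal markers counted, of 6 listed, both rose with food in wild-type larvae, where 24.4% of all tested genes rose. In cdk12-as larvae 0 of 2 changed, against 27.7% of all tested genes.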

How the data were processed

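Total RNA was depleted of ribosomal RNA and made into stranded paired-end Illumina libraries, per the labels' protocols. The deposited read counts per gene, whole numbers, were used as they stand. The submitters' processing notes name the build ce10 and the tools Trimmomatic, HISAT2, featureCounts, DESeq2 and deepTools 3.2, but give none of them a role. Which counter and strand setting made the gene counts is not stated in the sources used, so counts of overlapping genes are uncertain. Lines that name no gene stayed out of library sizes and tests; they held 23.65 to 57.06% (no feature) and 0.83 to 10.7% (ambiguous) of a column. Positions and lengths came from a second deposited table, whose file header names featureCounts 1.5.0-p2 and strand setting 2. Its 32 per-library columns could not be matched to the sample labels and were left out. It lists 65 ceh genes, and the 9 without a row of gene counts were not analysed here. The lengths of 53 of the 56 members are multiples of 3, so they are called coding length.

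Counts of all genes were fitted with edgeR 4.0.16 (limma 3.58.1, R 4.3.3): filterByExpr with a minimum count of 10, TMM scaling, 1 model of 8 group means over 16 libraries without a replicate block, quasi-likelihood F tests and Benjamini-Hochberg adjustment over 15845 genes. Residual degrees of freedom were 8, prior ones 4.17 (median), and the common biological variation was 17.3%. Standard errors are the log2 fold change divided by the root of F. Ratios of neighbours used a pseudocount of 0.5 counts. The fitting steps were tested on simulated data. Alternatives were other scalings, filters, DESeq2 1.42.0, a replicate block, the libraries of a comparison alone and leaving out each library.

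Named were, for each comparison, up to 12 called members with a mean of at least 1 CPM and the largest change, besides ceh-21, ceh-41 and ceh-39, the highest member of each class and up to 6 other homeobox genes. The members, lists and classes were chosen with earlier results of these data known. No sequences are shown.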

Additional observations from a re-analysis of the deposited data

Results flagged for a closer look

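Groups of 2 libraries are too small for a test of single outlying libraries. In 3 cases the response of a ceh gene differed between the strains by a test of the difference itself. The response of ceh-41 to the inhibitor in fed larvae differed by -2.12 on the log2 scale (adjusted p = 7.22e-05), with 1.39 and 1.45 CPM in treated and 6.57 and 5.10 CPM in untreated cdk12-as larvae, against 11.2 and 9.56 CPM in treated and 9.58 and 9.80 CPM in untreated wild-type larvae. The food response of ceh-57 differed by -1.12 (adjusted p = 0.00857), being -0.53 in cdk12-as and 0.60 in wild type. The food response of ceh-79 differed by 0.88 (adjusted p = 0.0333), being -0.73 in cdk12-as and -1.61 in wild type, and the call of ceh-79 was lost when any 1 of the 8 libraries was left out.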

How the results depend on the processing

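Counts of called ceh genes moved by over 1.5 times as follows; the causes were not tested. Scaling by total count gave 1 for food in cdk12-as, 0 for the strain difference in the food response, 1 for the inhibitor in cdk12-as, 4 for fed with inhibitor over starved cdk12-as, 1 for starvation in wild type, and 2, 1 and 0 between strains at the start, in starved and in fed larvae. Of all 15845 tested genes it called 1165, 176, 827, 2811, 378, 1220, 1050 and 1457 in these comparisons in turn. The main fit called 4396, 1064, 1924, 5405, 969, 3865, 2865 and 4579. Total count less rrn-2.1 gave 12 for food in cdk12-as, 2 for the strain difference in the inhibitor response, 19 for fed with inhibitor over starved cdk12-as and 1 for starvation in wild type. Of all 15845 tested genes it called 4501, 1186, 5923 and 946 in these comparisons in turn, and the main fit 4396, 1099, 5405 and 969. The lower shares of members than of all genes in the main fit for food in cdk12-as and for fed with inhibitor over starved cdk12-as thus depended on the scaling. No filter on low counts gave 5 between strains at the start and 2 in starved larvae, and a filter of at least 1 CPM in 2 libraries gave 2 for the strain difference in the inhibitor response. DESeq2 gave 2 for that difference, 1 for starvation in wild type and 5 between strains at the start. The libraries of the comparison alone gave 2 for food in cdk12-as, 6 for fed with inhibitor over starved cdk12-as and 2 between strains in starved larvae. The labels do not say that a replicate number marks a shared culture. With the replicate block the counts were 15 for food in cdk12-as, 5 for the inhibitor in cdk12-as, 2 for the strain difference in the inhibitor response, 5 and 6 for starvation in wild type and cdk12-as, and 15 and 8 between strains at the start and in fed larvae. For ceh-39 the block gave calls in 6 comparisons where the main fit had none: food in wild type (0.33, adjusted p = 0.00741), the inhibitor in cdk12-as (0.31, 0.0233), fed with inhibitor over starved cdk12-as (0.31, 0.0111), starvation in wild type (-0.30, 0.0413), and the strains at the start (0.26, 0.0296) and in starved larvae (0.41, 0.0041). Fed with inhibitor over starved cdk12-as and the strains in starved larvae were also called under other alternatives. Differences between replicates 1 and 2 correlated at 0.141 to 0.536 over the 28 pairs of groups, so all were positive. The rrn-2.1 share split by replicate number too. Whether that number marks a shared batch was not tested, and the main fit has no term for it.

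Leaving out 1 library gave 13 to 17 called members for food in wild type, 2 to 6 for food in cdk12-as, 1 for its strain difference, 2 to 3 for the inhibitor in cdk12-as, 6 to 11 for fed with inhibitor over starved cdk12-as, 1 for starvation in wild type, 1 to 2 for it in cdk12-as, and 1 to 4, 1 to 2 and 2 to 3 between strains at the start, in starved and in fed larvae. Signs turned for fold changes that were not called. With food, total count gave -0.10 for ceh-21 and -0.026 for ceh-39 in wild type. For ceh-39 in cdk12-as with food the values were 0.017 with RLE size factors, 0.039 with no filter, 0.073 with the 1 CPM filter, 0.023 with the libraries alone and 0.025 with DESeq2, and -0.17 to 0.18 leaving out 1 library. For ceh-21 the strain difference in the food response was 0.19 with total count, 0.053 with total count less rrn-2.1 and -0.24 to 0.037 leaving out 1 library. With inhibitor in wild type, ceh-39 was at 0.018 with no filter and -0.15 to 0.12 leaving out 1 library, and ceh-41 at -0.0058 to 0.21. Leaving out 1 library also gave -0.32 to 0.0078 for ceh-39 on starvation in cdk12-as, -0.0032 to 0.43 and -0.24 to 0.046 for ceh-21 between strains at the start and in starved larvae, and -0.043 to 0.22 for ceh-39 between strains in fed larvae. Of the values for named genes, 899 kept sign and side of the threshold, 197 lost the call, 15 gained one and 21 changed sign. The log2 ratio of ceh-41 to ceh-21 kept its sign, at -1.52 to -1.03 leaving out 1 library. With 2 libraries a group, a lone remaining library is assumed to vary like the other groups, and levels below 1 CPM rest on few reads.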
